A study of Homo sapiens with 6 samples.

Results

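The 41 genes described here encode proteins that copy DNA or supply its building blocks: the MCM helicase, the origin recognition complex, the factors that load and start the helicase, the sliding clamp and its loader, polymerase and primase subunits, the RPA proteins, the enzymes that join Okazaki fragments, and enzymes of nucleotide synthesis. They were chosen by name, and all 41 were found among 19970 protein-coding genes of GRCh38.p14 on chromosomes 1 to 22 and X. What was read at each gene was the position and score of peak summits within 1 kb of either annotated gene end and inside the gene. The cells were GM12878 at low passage, an established human line of B lymphocytes transformed with Epstein-Barr virus. Open chromatin was mapped by InTAC-seq, which applies the Tn5 transposase of ATAC-seq to cells that have been fixed and stained with an antibody. The 6 libraries formed 3 groups of 2. The H3K27ac high and H3K27ac low groups came from cells that were stained for viability, fixed with paraformaldehyde, permeabilised, stained for the histone mark H3K27ac and sorted on that stain, and their crosslinks were reversed after transposition (the protocol once spells the mark H3K37ac, the titles H3K27ac). The live control group was unsorted fresh cells whose DNA was purified with no reversal of crosslinks, so fixation, sorting and crosslink reversal cannot be told apart in comparisons with it. All groups came from 1 cell line. Each replicate was 50000 cells split off after counting, and nothing names separate cultures, so differences between replicates may be only technical.

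Before S phase, the origin recognition complex with CDC6 and CDT1 loads the MCM2-7 helicase onto replication origins. CDC45 and the GINS complex then activate it, and polymerases held by the PCNA clamp copy both strands. Many of these genes are known targets of E2F transcription factors, which switch them on as cells pass from G1 into S phase. Lymphoblastoid lines divide continuously in culture, so a share of the cells is always replicating.

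The lists held between 25754 summits (H3K27ac high replicate 1) and 72476 (live control replicate 2). No read numbers come with them, and sequencing depth is unknown. Summits closer than 250 bp were joined into regions across libraries, and the comparison used the top 25627 regions by score in every library, as many as high replicate 1 held in all. A gene counts as open where such a region had its summit within 1 kb of a gene end. Of 12 B cell markers, 7 to 8 were open per library and 6 in all 6 libraries, among them MS4A1, CD79B and EBF1, while BLK and CR2 were among those open in none and PAX5 was open in 1. Of 10 T and NK cell markers, 2 to 4 were open per library, with CD3E and CD8A open in all 6. Of 10 myeloid markers, 0 to 2 were open per library, and of 10 erythroid markers none.

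The members' promoters were first searched for the E2F consensus, because it is the known regulatory sequence of this gene group. The words searched were TTTCCCGC, TTTCGCGC, TTTGCCGC and TTTGGCGC on both strands, in the 300 bases from 250 before to 50 after each transcript start that RefSeq lists (build GRCh38.p14). Of the 36 members with an entry, 17 (47.2%) held a match, against 5.41% of 15811 protein-coding genes with an entry and 7.30% of the 6791 that were open in all 6 libraries. The 5 members with no entry used here were MCM4, MCM5, GINS4, RPA2 and RPA3. Matches were found in all 4 MCM2-7 genes with an entry and in 5 of 6 genes of helicase loading and activation (CDC6, CDT1, GINS1, GINS2 and GINS3). They were found in 1 of 6 genes of the origin recognition complex (ORC3), and among the others in MCM8, PCNA, RFC3, POLA2, POLE, LIG1 and TYMS. Words of opposite strands overlap in MCM2 and MCM6. The CCAAT box, the NF-Y recognition word, was searched as CCAAT on both strands and was present in 61.1% of members, 46.7% of genes open in all 6 libraries and 42.1% of all genes. An ETS word, CCGGAAG, stood at 19.4% of members, below the 26.7% of open genes and above the 16.5% of all genes. A core of the NRF1 site, GCGCATGC, stood at 8.33%, 7.60% and 4.89% in the same order. Median GC content was 64.8% in members, 64.7% in genes open in all 6 libraries and 62.3% in all genes. The median ratio of observed to expected CpG was 0.939, 0.848 and 0.737 in the same order. A gene with several listed starts has more sequence to match, which applied to 8 members.

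**Figure D1:**
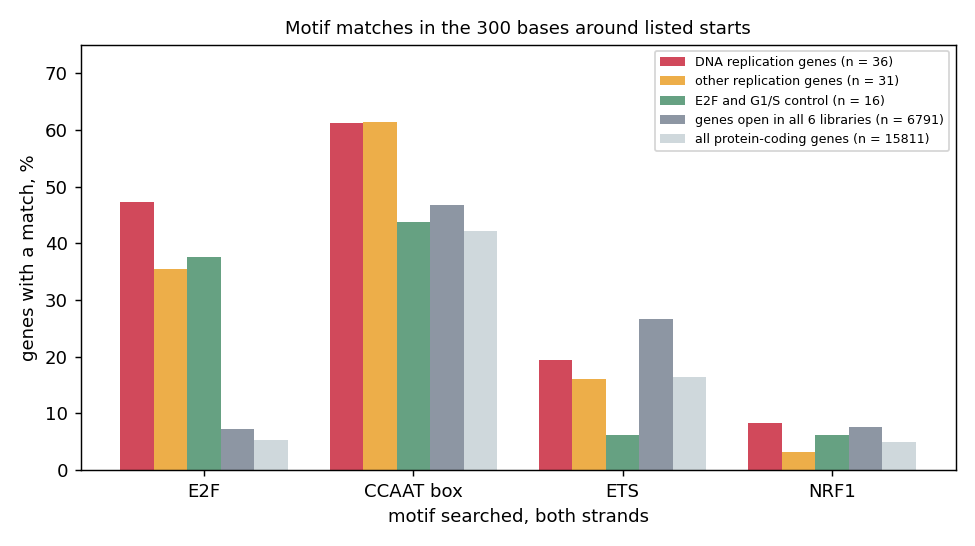
The bars give the percentage of genes with at least 1 match of each motif (x axis) in the 300 bases around their listed transcript starts, for 5 sets of genes. E2F matches stood at 47.2% of the replication genes and 5.41% of all protein-coding genes, and the sets lay closer together for the other motifs.

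The promoters below are shown to let the matched words be seen in their setting. They belong to the 4 MCM2-7 genes with an entry, to PCNA, and to GINS3, RFC3 and RFC2, whose ranks differed between the sorted groups. They are written 5′ to 3′ on the gene's strand in lower case, with E2F matches in capitals.
MCM2, chr3:127598161-127598460, plus strand: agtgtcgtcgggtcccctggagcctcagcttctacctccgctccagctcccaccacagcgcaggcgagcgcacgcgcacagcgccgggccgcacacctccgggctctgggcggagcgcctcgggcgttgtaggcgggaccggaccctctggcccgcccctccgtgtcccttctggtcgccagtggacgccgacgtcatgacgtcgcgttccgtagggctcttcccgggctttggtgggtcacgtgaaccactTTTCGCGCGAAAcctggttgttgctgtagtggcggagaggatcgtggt
MCM3, chr6:52284693-52284992, minus strand: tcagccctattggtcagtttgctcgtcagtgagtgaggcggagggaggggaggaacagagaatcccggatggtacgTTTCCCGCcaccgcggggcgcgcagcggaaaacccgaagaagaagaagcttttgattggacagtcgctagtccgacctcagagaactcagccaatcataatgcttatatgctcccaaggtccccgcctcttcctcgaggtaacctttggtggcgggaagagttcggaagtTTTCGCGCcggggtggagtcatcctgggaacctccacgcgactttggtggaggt
MCM6, chr2:135876394-135876693, minus strand: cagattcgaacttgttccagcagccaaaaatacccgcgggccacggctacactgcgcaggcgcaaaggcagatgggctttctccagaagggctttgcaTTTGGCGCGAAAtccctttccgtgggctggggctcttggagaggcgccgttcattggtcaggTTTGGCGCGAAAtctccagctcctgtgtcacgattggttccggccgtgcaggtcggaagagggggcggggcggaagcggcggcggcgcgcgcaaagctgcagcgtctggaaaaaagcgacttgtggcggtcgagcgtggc
MCM7, chr7:100101348-100101647, minus strand: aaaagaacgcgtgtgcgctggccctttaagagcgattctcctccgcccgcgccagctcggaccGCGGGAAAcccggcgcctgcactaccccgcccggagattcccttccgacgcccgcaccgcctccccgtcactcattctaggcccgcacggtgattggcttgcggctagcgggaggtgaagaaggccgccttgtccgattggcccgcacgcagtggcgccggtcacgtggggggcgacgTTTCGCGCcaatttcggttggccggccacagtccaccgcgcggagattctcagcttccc
PCNA, chr20:5126573-5126872, minus strand: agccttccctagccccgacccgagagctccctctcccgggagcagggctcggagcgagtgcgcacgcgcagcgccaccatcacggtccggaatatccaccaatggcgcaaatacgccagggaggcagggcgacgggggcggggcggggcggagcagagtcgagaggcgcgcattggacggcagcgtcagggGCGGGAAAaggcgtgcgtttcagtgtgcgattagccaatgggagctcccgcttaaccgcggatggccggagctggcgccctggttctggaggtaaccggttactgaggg
GINS3, chr16:58392221-58392520, plus strand: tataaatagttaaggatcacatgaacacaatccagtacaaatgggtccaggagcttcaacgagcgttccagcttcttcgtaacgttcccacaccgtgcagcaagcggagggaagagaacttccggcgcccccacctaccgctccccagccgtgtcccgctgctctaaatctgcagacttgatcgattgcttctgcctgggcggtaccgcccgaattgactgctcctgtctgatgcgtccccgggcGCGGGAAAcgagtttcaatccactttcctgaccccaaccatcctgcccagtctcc
RFC3, chr13:33817899-33818198, plus strand: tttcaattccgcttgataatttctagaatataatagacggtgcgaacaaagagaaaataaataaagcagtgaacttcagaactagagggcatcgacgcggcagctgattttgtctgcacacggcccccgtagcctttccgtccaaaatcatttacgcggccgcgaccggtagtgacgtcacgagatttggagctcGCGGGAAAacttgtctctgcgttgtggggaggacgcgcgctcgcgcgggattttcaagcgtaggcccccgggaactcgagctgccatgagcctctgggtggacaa
RFC2, chr7:74254350-74254649, minus strand: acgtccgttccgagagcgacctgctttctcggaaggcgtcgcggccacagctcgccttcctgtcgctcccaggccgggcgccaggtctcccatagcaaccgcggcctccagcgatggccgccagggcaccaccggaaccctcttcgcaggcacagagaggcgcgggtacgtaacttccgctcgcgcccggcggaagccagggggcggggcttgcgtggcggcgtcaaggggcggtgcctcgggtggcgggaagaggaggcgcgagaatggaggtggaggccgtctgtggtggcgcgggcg

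Counted from the start base as 0, the E2F match lay at 2 to 9 and overlapping it at 6 to 13 in MCM2, and at -174 to -167 and -4 to 3 in MCM3. MCM6 held 4 matches between -152 and -79, and MCM7 had them at -187 to -180 and -9 to -2. RFC2 had no match. Over the 17 members, the match nearest to the main accessibility summit was a median of 55.5 bp from it and lay within 100 bp in 12. It lay downstream of the summit in 13. The words were searched only near the start, where most summits also lie, so short distances follow in part from the search window. No distance for other genes was set beside these. The summit was taken as the median over libraries. At GINS3 that median was 130.5 bp, which lay between the summits of single libraries. A match is a description of these letters and does not show that a factor binds.

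Nearly all of the replication genes were open in every library. Of the 41, 37 (90.2%) were open in all 6 libraries, where 40.2% of all protein-coding genes were. Per library 38 to 40 members were open. In the full lists too, 37 had a summit at a gene end in all 6 libraries, where 43.5% of all genes did. The list was drawn with earlier results of these data known, so the count is a description.

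The 4 exceptions were ORC1, CDT1, RPA1 and TYMS. ORC1, which encodes the largest subunit of the origin recognition complex, was open in no library by this rule, its site lying inside the gene record. Its summit stood at -133 and -92 bp from the listed transcript start in the live libraries, -47 and -97 bp in the high and -90 and -105 bp in the low libraries (negative is upstream), with replicate 1 first here and throughout. That site (chr1:52404470-52404556) is 4.99 kb from the nearer end of the gene record and within 1 kb of an end of the neighbouring gene PRPF38A. It ranked 4886 and 5056 among the regions of the live libraries, 7096 and 5847 in the high libraries, and 3994 and 5572 in the low libraries. With listed transcript starts added to the gene ends, 38 members were open in all 6 libraries, against 43.0% of all genes.

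CDT1, which brings the helicase to origins, was open in 3 libraries. Its region ranked 17454 in H3K27ac high replicate 2 and 14679 and 17853 in the low libraries. It ranked 44309 and 42551 in the longer live lists, outside the 25627 best, and had no summit in H3K27ac high replicate 1. RPA1, the large subunit of the single-strand binding protein, was absent in H3K27ac high replicate 1 alone. It ranked 11532 and 6813 in the live libraries, 17584 in high replicate 2 and 8416 and 8496 in the low libraries, and its site is shared with SMYD4. High replicate 1 is the shortest list, and without it 38 members were open in all remaining libraries, as were 43.2% of all genes.

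TYMS, which encodes thymidylate synthase, had its summits at 2 neighbouring positions downstream of the listed start, on either side of the window's edge. The first, at 662 bp in live replicate 2 and at 621 and 606 bp in the high libraries, was inside the 1 kb window. The second, at 1131 bp in live replicate 1, 1159 bp in high replicate 1 and 1130 and 1088 bp in the low libraries, was outside it. TYMS was therefore the 1 member found open in both high libraries but neither low one (0.255% of all genes). No member was open in both low libraries but neither high one (1.5% of all genes), and 2 were without high replicate 2 (5.54%). With a window of 500 or 2500 bp, or with summits joined up to 1000 bp, the count in favour of high was 0. A weaker summit at -26 bp was listed in high replicate 2.

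To compare libraries on the same set, each library's genes were ranked by their best region among the 8022 genes open in all 6, so 1 is the best score and 4011.5 the middle. The 37 ranked members had a median mean rank of 3228, where all genes had 4099, and 25 of 37 (67.6%) had a mean rank better than the middle, where 48.4% of all genes were. Per library the members' median rank ran from 2885 (live control replicate 2) to 3645 (H3K27ac high replicate 1). A rank orders the authors' scores within 1 library and is no measure of absolute accessibility.

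**Figure D2:**
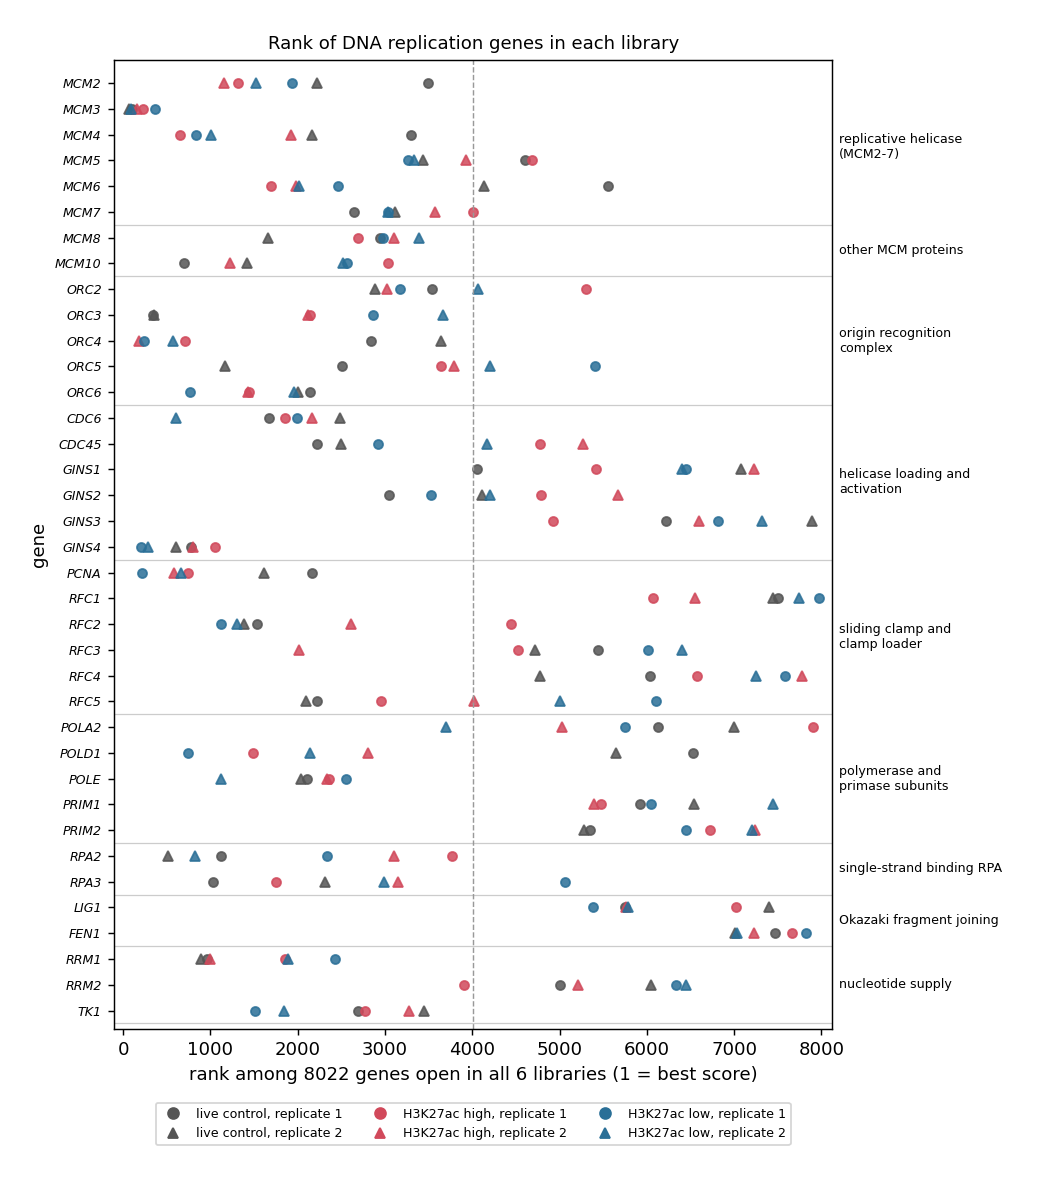
Each row is a replication gene, grouped by role, and each point its rank in 1 library (x axis, 1 is best, dashed line the middle rank of 4011.5), coloured by group with a circle for replicate 1 and a triangle for replicate 2. MCM3 lies at the far left in all 6 libraries (ranks 62 to 366), and FEN1, RFC1 and RFC4 lie towards the right.

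MCM3, a helicase subunit, had the best mean rank of all members by sites at gene ends, although GINS4, PCNA and ORC4 ranked ahead of it in low replicate 1. Its ranks were 106 and 62 in the live, 224 and 162 in the high libraries, and 366 and 85 in the low libraries. GINS4, part of the complex that activates the helicase, ranked 775 and 607 (live), 1053 and 801 (high) and 200 and 284 (low). PCNA, the sliding clamp, ranked 2165.5 and 1618.5 (live), 739.5 and 581.5 (high) and 214.5 and 663.5 (low), where a fractional rank marks genes tied at 1 site. ORC4 and RRM1 completed the 5 best by mean rank, at 1365 and 1502.5. At the other end stood FEN1, the flap nuclease of Okazaki fragments, with ranks of 7472.5 and 7011.5 (live), 7659.5 and 7229.5 (high) and 7820.5 and 7030.5 (low). RFC1 and RFC4, clamp loader subunits, had mean ranks of 7215 and 6666. Strong and weak sites thus both occurred within the list.

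Among the 6 helicase genes, all open in every library, mean ranks ran from 168 (MCM3) to 3876 (MCM5). MCM6 ranked 5557 and 4131 in the live libraries, 1695 and 1978 in the high libraries, and 2458 and 2014 in the low libraries. Both live libraries stood behind all 4 sorted ones, and both high ahead of both low. MCM2 had the same order, with means of 2856 ± 896 (live), 1235 ± 117 (high) and 1724 ± 291 (low) (SD, n = 2 each). MCM4, whose site is shared with PRKDC, also ranked better in the sorted libraries, with 3293.5 and 2167.5 live against 652.5 and 1921.5 high and 837.5 and 1004.5 low. MCM5 ranked 4689 and 3932 in the high libraries, and 3262 and 3333 in the low libraries, with live ranks of 4600 and 3440. MCM7, whose site is shared with AP4M1, ranked 4008.5 and 3577.5 in the high libraries, and 3040.5 and 3039.5 in the low libraries. Of these genes, MCM2 and MCM6 ranked better in high (25.2% of all genes ranked) and MCM5 and MCM7 better in low (23.4%). MCM3 and MCM4 overlapped. MCM8, a relative that works in DNA repair, and MCM10, which helps to activate the helicase, had overlapping ranks in the sorted groups, with mean ranks of 2793 and 1912.

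The origin recognition complex held genes with opposite orders between live and sorted cells. All 4 sorted libraries stood ahead of both live ones at 19.0% of all genes ranked, and the reverse held at 18.4%. The ranked sites of ORC3, ORC4 and ORC6 are shared with RARS2, MBD5 and VPS35, in that order, so these ranks cannot be assigned to the ORC genes alone. ORC3 ranked 342.5 and 357.5 in the live, 2138.5 and 2117.5 in the high libraries, and 2863.5 and 3660.5 in the low libraries, so the 3 groups did not overlap. ORC5 followed the same order, with 2504 and 1169, 3645 and 3790, and 5411 and 4200. ORC4 went the other way between live and sorted cells, with live ranks of 2843.5 and 3642.5, high ranks of 709.5 and 186.5 and low ranks of 235.5 and 572.5. ORC6 was likewise better in all sorted libraries, at a mean of 1431 ± 7.8 in high and 1361 ± 842 in low against 2072 ± 99.0 live (SD, n = 2). ORC2 overlapped in every comparison.

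Of the genes that load and activate the helicase, CDC45, GINS2 and GINS4 ranked better in both low than in both high libraries. This order was held by 23.4% of all genes ranked. GINS3 ranked better in both high, as did 25.2% of all genes ranked. CDC45 ranked 4779.5 and 5268.5 in the high libraries, and 2924.5 and 4173.5 in the low libraries, and 2222.5 and 2495.5 live. GINS2 ranked 4789 and 5675 in the high libraries, and 3532 and 4203 in the low libraries, with live ranks of 3047 and 4117. GINS3 ranked 4931 and 6598 in the high, 6817 and 7318 in the low and 6220 and 7895 in the live libraries. These ranks refer to different regions. Both live libraries and high replicate 1 had the best summit in 1 region, and high replicate 2 and both low libraries in another. The call of GINS3 as better in high therefore mixes sites. CDC6, the loading ATPase, and GINS1 overlapped, with mean ranks of 1796 and 6107. The subunits of the GINS complex thus spanned mean ranks from 620 (GINS4) to 6630 (GINS3).

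The clamp loader genes held the widest gaps in both directions. RFC3 ranked 4523 and 2014 in the high libraries, and 6009 and 6405 in the low libraries, a difference of mean ranks of 2938.5, with live ranks of 5437 and 4716. RFC5 ranked 2949 and 4025 in the high libraries, and 6108 and 5008 in the low libraries, and 2225 and 2098 live. RFC1 ranked 6074 and 6549 in the high libraries, and 7976 and 7743 in the low libraries, and 7504 and 7445 live. RFC2 had the opposite order, with 4441 and 2610 in the high, 1121 and 1302 in the low and 1529 and 1380 in the live libraries. RFC4 ranked 6041 and 4771 in the live libraries and 6572 to 7777 in the sorted ones, where high and low overlapped. Of the 5 subunits, 3 ranked better in high (25.2% of all genes ranked), 1 better in low (23.4%) and 1 overlapped.

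Among the polymerase and primase genes, POLD1, the catalytic subunit of polymerase delta, had the widest difference from the live control. It ranked 6529.5 and 5652.5 in the live libraries, 1492.5 and 2802.5 in the high libraries, and 744.5 and 2145.5 in the low libraries, and its site is shared with NR1H2. PRIM1, the catalytic primase subunit, ranked 5472 and 5392 in the high libraries, and 6043 and 7448 in the low libraries, with live ranks of 5923 and 6543. POLE, the catalytic subunit of polymerase epsilon, and POLA2 overlapped between the sorted groups, with mean ranks of 2083 and 5920. PRIM2 was ranked by a site at its outer gene end that is shared with RAB23, and had a mean rank of 6375.

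RPA2 ranked 3766 and 3105 in the high libraries, and 2339 and 824 in the low libraries, and 1121 and 514 live. RPA3 was ranked by a site just beyond its gene end, and not by the stronger site inside the gene that is described below. By that outer site high and low overlapped, at means of 2450 ± 989 (high) and 4025 ± 1470 (low) (SD, n = 2). LIG1, the ligase that seals Okazaki fragments, and FEN1 overlapped in every comparison of 2 groups. RRM1 and RRM2, the subunits of ribonucleotide reductase, belong to nucleotide supply. Both ranked better in the high libraries (25.2% of all genes ranked). RRM2 ranked 3905 and 5209 in the high, 6339 and 6450 in the low and 5006 and 6051 in the live libraries. RRM1 ranked 1859 and 997 in the high, 2431 and 1884 in the low and 956 and 888 in the live libraries. TK1, thymidine kinase, ranked better in low (23.4% of all genes ranked). Its ranks were 2775.5 and 3270.5 in the high, 1507.5 and 1841.5 in the low and 2686.5 and 3451.5 in the live libraries.

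Over all members the counts in both directions stood near those of other genes. Of the 37 ranked members, 8 ranked better in both low than in both high libraries (23.4% of all genes ranked) and 11 better in both high than in both low (25.2% of all genes), and 18 overlapped. The median difference of mean ranks, low minus high, was -44 over members and 46.3 over all genes, and the median size of the difference was 729.5 and 737.5 ranks. Between replicates of a group the members' median rank difference was 523 in high, 449 in low and 721 in the live libraries. For a single gene the exact permutation test of 2 libraries against 2 cannot go below p = 0.333 (two-sided), which every non-overlapping gene above reaches, so no single gene can pass a conventional threshold. With fewer libraries to separate, the 8 became 14 without either high library and 13 without either low library, and the share of all genes rose to between 33.9% and 38.7%. Both high and both low libraries stood on opposite sides of both live libraries at 4 members: GINS4 and RFC2 with low ahead (1.35% of all genes) and RFC1 and RFC3 with high ahead (1.63%).

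**Figure D3:**
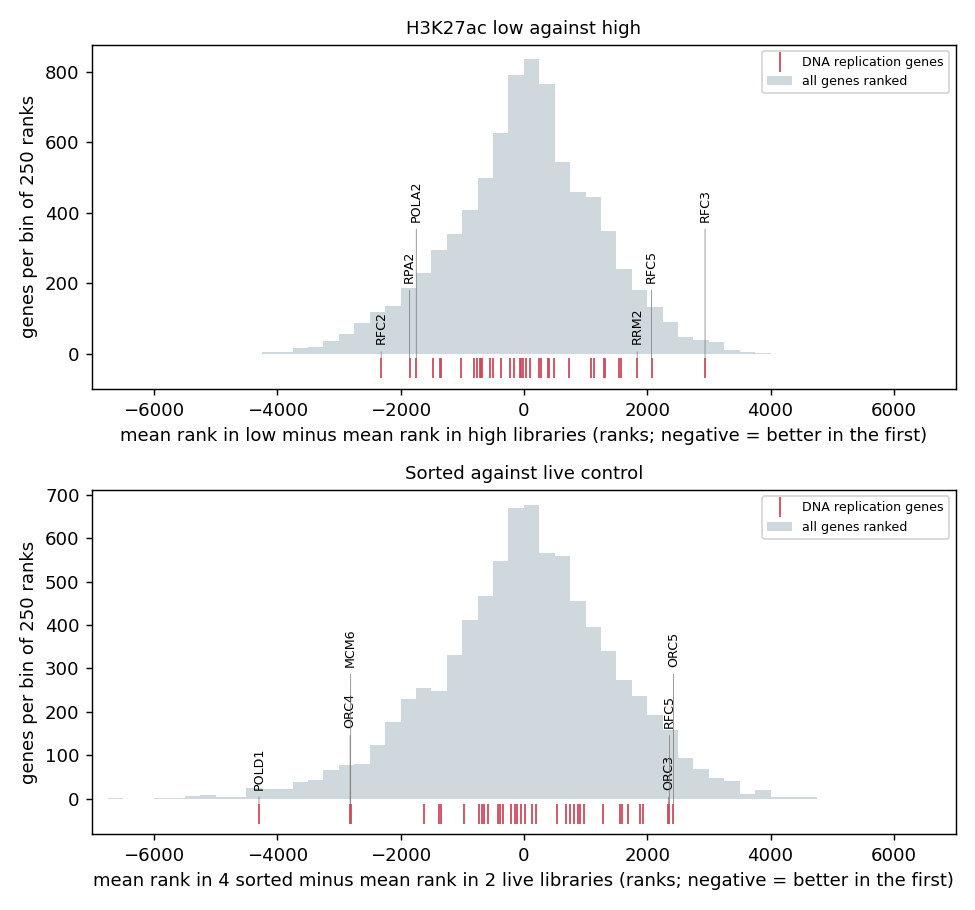
The histograms give, for all 8022 genes ranked, the difference of mean ranks between low and high libraries (upper panel) and between the 4 sorted and 2 live libraries (lower panel), in ranks, with the 37 replication genes as ticks and the 3 at either end named. The ticks lie across the body of both histograms, from RFC2 to RFC3 above and from POLD1 to ORC5 below.

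Against the live control, a grouping of the 4 sorted libraries added after the data were seen, 7 members ranked better in all 4 sorted than in both live libraries (19.0% of all genes) and 7 the reverse (18.4%). The 7 ahead in sorted cells were MCM2, MCM4, MCM6, ORC4, ORC6, PCNA and POLD1. The 7 ahead in live cells were ORC3, ORC5, CDC45, RFC4, RFC5, PRIM2 and RRM1. The exact permutation test of 4 libraries against 2 cannot go below p = 0.133 (two-sided). Without live control replicate 1 the counts were 11 with sorted ahead (27.4% of all genes) and 12 with live ahead (28.8%), and without live control replicate 2 they were 7 (27.3%) and 12 (28.3%). Taken separately, 10 members ranked better in both high than in both live libraries (27.9% of all genes) and 14 the reverse (28.0%). For low against live the counts were 12 (29.9%) and 13 (31.6%). These comparisons share the live libraries and so are not independent.

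Sites shared with a neighbouring gene made up much of the list. At 15 of the 37 ranked members (40.5%) the main site also lay within 1 kb of an end of another protein-coding gene, as it did for 33.1% of the 8022 genes. The pairs included MCM2 with TPRA1, MCM4 with PRKDC, MCM8 with TRMT6, ORC3 with RARS2, ORC6 with VPS35, CDC45 with UFD1, PCNA with CDS2, POLE with PXMP2, FEN1 with TMEM258 and TK1 with AFMID. Their summits cannot be assigned to 1 gene of the pair. Of the 7 members ahead in sorted cells, all but MCM6 share their site in this way. Without shared sites 22 members were open in all 6 libraries (27.3% of all genes). Of these, 1 ranked better in all 4 sorted than in both live libraries (18.7% of all genes) and 4 the reverse (18.0%), 5 ranked better in low than in high (23.5%) and 7 better in high than in low (24.9%).

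The main summit kept its position at most genes. For 33 members a best region lay within 1 kb of the same listed start in all 6 libraries, and its summit stood at a median of -89 bp, against -81 bp over 7054 genes. The summits of all 6 libraries fell within the window from 250 bp before to 50 bp after the start at 26 of the 33 (78.8%), against 63.5% of all such genes. Between libraries the summit moved by a median of 78 bp at members and 90 bp at all genes. At TK1 it lay between -15 and -8 bp in every library, a range of 7 bp, and at MCM3, RRM1, RFC2 and POLA2 the range was 20, 22, 23 and 28 bp. ORC6 stood apart in having its summit between -401 and -323 bp in every library, in the stretch towards VPS35.

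**Figure D4:**
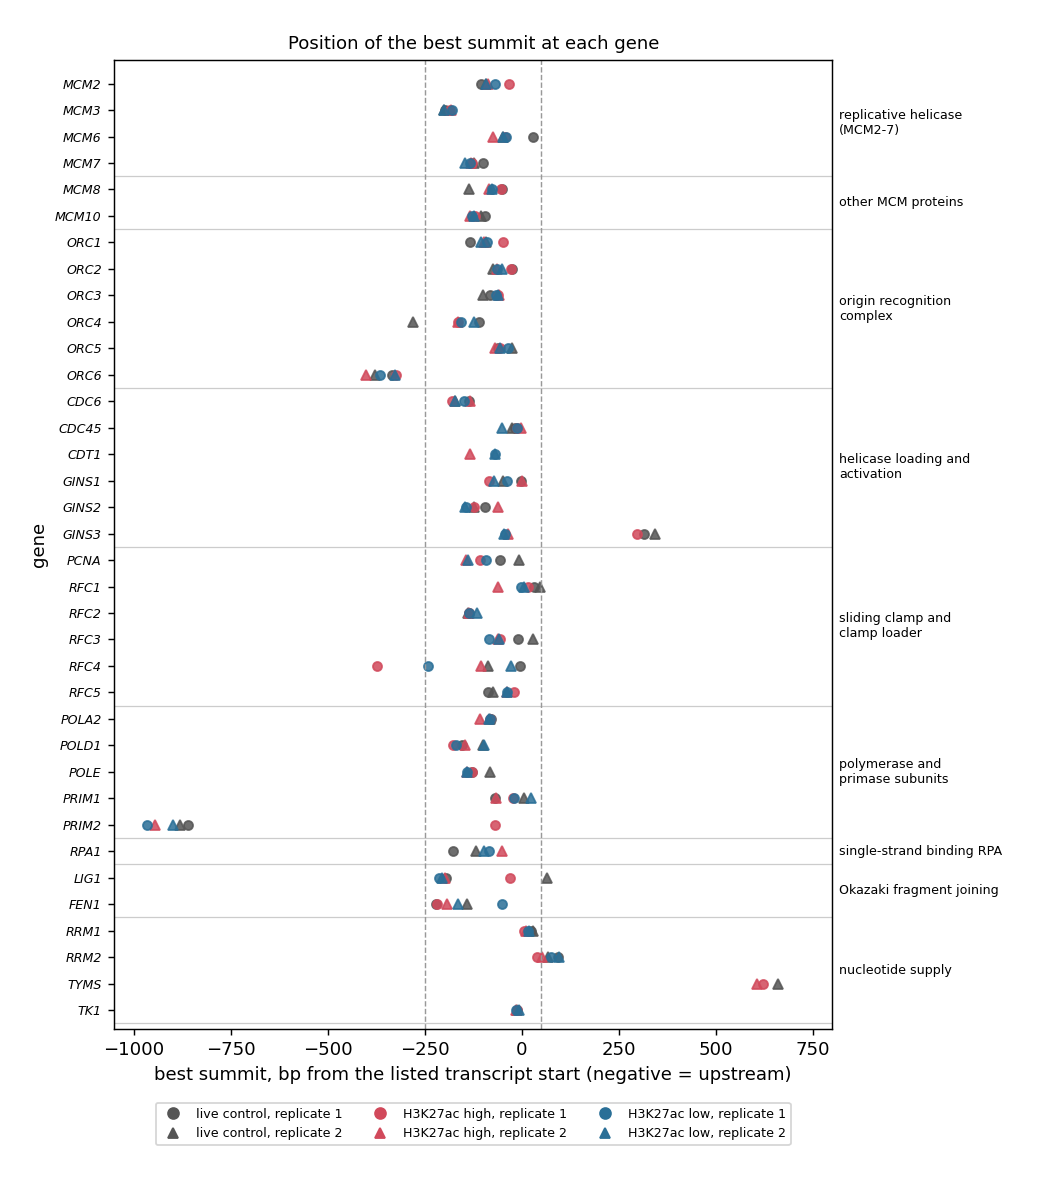
Each row is a replication gene with a listed start, and each point the position of its best summit in 1 library, in bp from that start (x axis, negative is upstream), with dashed lines at 250 bp before and 50 bp after it. Most points lie between the dashed lines, ORC6 lies further upstream, and GINS3, RFC4, LIG1 and PRIM2 are spread over more than 200 bp.

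The position ranged over more than 200 bp at 4 of the 33 members (12.1%), against 15.2% of all genes. GINS3 had its summit at 316 and 343 bp in the live libraries and 296 bp in high replicate 1, but at -35 bp in high replicate 2 and at -44 and -45 bp in the low libraries. The replicates of the high group therefore fell on different sides. At RFC4 the summit lay at -374 and -105 bp in the high libraries and at -241 and -27 bp in the low libraries. At LIG1 it lay at -29 and -197 bp in the high libraries and at -213 and -205 bp in the low libraries. At FEN1 the high summits stood at -218 and -193 bp and the low ones at -50 and -163 bp, and the live ones at -221 and -142 bp. PRIM2 had 2 sites near a listed start inside the gene, and the better one was that at -70 bp in high replicate 1 and that between -967 and -859 bp in the other libraries. These were the 5 members with the widest shift of mean position between the sorted groups. At GINS3 and LIG1 the sorted groups were separated only narrowly, at FEN1 both low summits were nearer the start than both high ones, and at RFC4 and PRIM2 the groups overlapped.

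Inside the genes, 8 of 41 members had a region more than 1 kb from either end in all 6 libraries, against 17.0% of all genes, and 15 (36.6%) had one in any library, against 34.1%. The 8 were MCM5, MCM8, ORC1, PCNA, RFC1, RFC5, PRIM2 and RPA3. RPA3, the small RPA subunit, held the strongest of these sites at chr7:7640609-7640646, 4.1 kb from a gene end, with region ranks of 61 and 49 (live), 207 and 50 (high) and 349 and 228 (low). That site also lies within 1 kb of an end of UMAD1. The site in PCNA (chr20:5120079-5120145) stood at -124 bp from another listed start of the gene and near an end of PCNA-AS1. It ranked 1866 and 2520 (live), 1789 and 2283 (high) and 1208 and 979 (low), so regions near both listed starts of PCNA were present in every library.

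RFC1 had a site 12.7 kb inside the gene (chr4:39353649-39353727) that ranked better than the site at its end in all 6 libraries. The inner site ranked 7593 and 3369 (live), 4848 and 7323 (high) and 7706 and 4831 (low), and the outer one 16500 and 16406, 12196 and 11954, and 22689 and 17231 among all regions. The inner site of MCM5 (chr22:35410181-35410451, 10.2 kb inside) ranked 2717 and 3464 in the live, 11696 and 11065 in the high libraries, and 6473 and 3807 in the low libraries, so both high libraries stood behind both low ones, as at its gene end. RFC5 had a site 5.76 kb from its far end that ranked 9133 and 7753 in the high libraries, and 14906 and 14066 in the low libraries, the same order as at its start. These ranks are among all regions of lists of unequal length and describe order only. Whether a site lies in an exon or intron was not analysed here.

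Most replication genes outside the list were also open in all 6 libraries. Of 39 further genes of replication forks and origins, 33 (84.6%) were open in all 6 libraries, beside 40.2% of all genes. Of the other 6, RECQL4, POLE2, RNASEH2A and CHAF1B were open in 5 libraries, ATAD5 in 1 and UHRF1 in none. Of the 33, 10 ranked better in both low than in both high libraries and 10 the reverse, beside 23.4% and 25.2% of all genes. Of 20 genes of E2F and G1/S control, 17 were open in all 6, beside the same 40.2%, and E2F2, E2F6 and CCNE2 in 3 libraries each. Of the 17, 3 ranked better in low and 8 better in high, beside 23.4% and 25.2% of all genes. An E2F match was present in 35.5% of the first list and 37.5% of the second. Among the members, the 15 ranked genes with an E2F match had a median mean rank of 2972 and the 17 without one of 3644. Of those with a match 2 ranked better in low and 5 in high, and of those without 3 and 6, beside 23.4% and 25.2% of all genes.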

How the data were processed

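Accessibility was profiled in 6 libraries of GM12878 cells, grouped by sample title. In each list the authors deposited, a line gives a summit's base and a score, read as the −log10 of a p-value or q-value from the authors' peak caller. Per the submitters' processing notes, bcl2fastq, FastQC, Bowtie2, Picard and MACS2 were used, with builds hg38 and hg19 named. Not given in the sources used here are versions, settings, the Tn5 shift, duplicate removal and excluded regions. The summits, listed per library, were read as hg38 and set against RefSeq GRCh38.p14. At 7054 genes a best summit lay within 1 kb of the same listed start in all libraries. Of these summits, 80.2% fell from 250 bp before to 50 bp after that start. Their median offset of -81 bp is bounded by the 1 kb limit and cannot by itself tell the builds apart. Scores grow with depth, which is unknown, and were used only to rank within a list. The lowest score was 2.02.

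Python 3.11.15 and pandas 2.3.3 were used. Summits closer than 250 bp were joined and the best 25627 regions per library kept, with ties broken by a seeded draw. A gene is open when a kept summit lies within 1 kb of either end, and genes open in all 6 libraries were ranked against each other. No list test was made. The ranking was run on simulated lists with known shifts, large beside the simulated noise, which checks the calculation only and not the real lists. Named genes were members not open in all libraries, the 6 widest non-overlapping gaps per direction between high and low, the 5 best and 3 worst ranked, and those with most inside sites or the widest summit shifts. Others were named after their values were seen, as were the motifs chosen. The members and lists were chosen with earlier results of these data known. Alternatives covered list length, window, joining distance, shared sites, the replicate block and each library left out.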

Additional observations from a re-analysis of the deposited data

Results flagged for a closer look

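At 4 members the high and the low libraries stood on opposite sides of both live libraries. GINS4 (difference of mean ranks, low minus high, -685) and RFC2 (-2314) ranked better than both live libraries in low and worse than both in high, a pattern held by 1.35% of all genes ranked. RFC1 (1548) and RFC3 (2938.5) ranked better than both live libraries in high and worse in low, a pattern held by 1.63%. Whether the response differs between the groups was not tested, since 2 libraries a group cannot reach a p below 0.333 in the exact permutation test (two-sided). At RFC3 and RFC2 the SD between the high replicates was 1774 and 1295 ranks (n = 2).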

How the results depend on the processing

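Of 78 values recomputed under alternatives other than leaving out a library, 65 stayed within 1.5 times the reported count. With only the 12813 best regions kept, members open in both low libraries but neither high one became 2 (2.83% of all genes). Those with an inside region in all libraries became 5 (8.1%). With windows of 500 and 2500 bp, and with joining up to 1000 bp, members open in both high libraries but neither low one became 0. Leaving out shared sites gave 22 members open in all libraries, 5 better in low (23.5% of all genes) and 7 better in high (24.9%) than in the other sorted group, 4 better in high than live (27.6%) and 9 the reverse (27.9%), 5 better in low than live (30.0%), and 1 (18.7%) and 4 (18.0%) for sorted against live, where fewer members could be counted. Leaving out 1 library gave 0 to 2 open in both low libraries alone among the sorted ones (2 without high replicate 2, 5.54% of all genes). Better in low than in high were 8 to 14 members (23.4% to 38.7% of all genes). Better in all sorted than in live were 7 to 11 (21.3% to 27.4%), and 8 to 12 the reverse (21.1% to 28.8%). With the replicate number as a block, 11 members ranked better in low than high (30.4% of all genes), 12 the reverse (33.8%), 12 better in high than live (33.8%) and 19 the reverse (34.3%), and 13 better in low than live (34.9%) and 18 the reverse (37.6%), all within 1.5 times the unblocked counts. The titles give replicate numbers only and do not say whether same-numbered libraries belong together. Over genes, deviations of same-numbered libraries correlated at 0.0934 (high and low), 0.0184 (low and live) and 0.00757 (high and live). These values cannot settle whether the samples were paired. Depth limits absence, since a site missing from the shortest list may lie below its threshold.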
